A study of Mus musculus with 16 samples.

Results

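Intraepithelial lymphocytes are T cells that live between the epithelial cells of the gut. The genes described here are 10 genes by which these cells are recognized: Cd3e, Cd3g, Cd3d, Cd8a, Cd8b1, Itgae, Gzma, Gzmb, Cd160 and Cd7. They were chosen by name, 10 of the 23299 genes with deposited values, and each gene's value is the sum over its transcripts. All 10 had an RPKM (reads per kilobase of transcript, relative to the library's total) of at least 1 in at least 2 libraries and so were among the 19042 genes tested.

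RNA came from the terminal ileum, the last stretch of the small intestine, of C57BL/6 mice, either wild type (Tas1r3+/+, WT) or carrying the Tas1r3tm1Csz deletion (Tas1r3-/-, KO), which lack a subunit of the sweet and umami taste receptors. Mice of both genotypes were littermates of 5 to 6 weeks at the start and received for 10 weeks either the normal diet (ND) with plain water or the Western diet (WD), a high-fat chow (60%) and drinking water holding 30% sucrose. The labels name no other agent for these samples, and the deletion is present in all cells rather than in 1 cell type. The labels give 4 mice per group, 2 males and 2 females, and 13 libraries were used. In KO-ND the female columns can be computed from the male ones as weighted averages, with 0 exceptions among transcripts of the 10 genes, and were not used, so KO-ND has 2 male libraries and no female. The female columns of KO-WD were averaged to 1 library, since the second column looks like a mean that includes the first (2 times the second minus the first had at most 6 digits in 99.9% of 47700 transcripts, against 67.0% to 75.6% with other WD columns). WT-ND and WT-WD have 4 libraries each, and nothing in the labels links a library to a litter or cage, so the tests measure the spread between these samples.

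An intraepithelial lymphocyte reads antigen through a T cell receptor that signals through the CD3 chains. Its CD8 molecule is either a pair of alpha chains, made by Cd8a alone and typical of the natural cells that settle in the gut early in life, or an alpha-beta pair, which needs Cd8b1 and marks conventional cytotoxic T cells that were activated by antigen and moved into the epithelium. Itgae encodes the alpha E integrin that holds the cells to E-cadherin of the epithelium, the granzymes Gzma and Gzmb are proteases of their killing granules, Cd160 is a receptor for Tnfrsf14 (HVEM), and Cd7 is a surface receptor of T and natural killer cells. In ileum tissue, fewer such cells and less RNA per cell cannot be told apart.

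Values are given as scaled RPKM, the RPKM divided by a factor of each library (0.693 to 1.41) that brings the bulk of the genes to the same level. By the size of the smallest steps in the values, 1 read on a transcript of 1 kb was worth 0.0692 to 0.139 RPKM, and the libraries held 7003830 to 12384388 reads in the table. Tas1r3 itself had an RPKM of 1.80 to 6.27 in the WT libraries and of at most 0.00452 in the KO libraries, so that gene matched the labels. The 6 epithelium markers summed to a scaled RPKM of 2214 to 7859 over all libraries.

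The 10 genes were low but present in this tissue. Cd7 was the most abundant with a mean scaled RPKM of 6.66 over 13 libraries, at the 50.3 percentile of the tested genes. Gzma followed with 4.30, Cd3g with 3.97, Cd3d with 2.24, Cd3e with 1.93, Itgae with 1.80, Cd8a with 1.71, Gzmb with 1.29, Cd160 with 1.17 and Cd8b1 with 0.868, which lay at the 7.60 percentile. Few neighbors in this order were separated: Cd3g was above Cd3d in 13 of 13 libraries (log2 difference 0.79 ± 0.48, SD), Cd7 was above Gzma in 11 of 13 (0.85 ± 0.99), and Cd8a was above Gzmb in 10 of 13 (0.28 ± 0.62). In the other neighboring pairs the gene with the higher mean was above the next in 6 to 8 of 13 libraries, so their order was not separated. The depth behind these levels was small, with a median of 12 reads per library for Cd8b1, 13 for Cd160 and 17 for Gzmb and of 73 for Itgae. The lowest value was that of Cd8b1 in WT-ND male 2, which rested on 1 read (95% Poisson interval 0.0253 to 5.57 reads). Such intervals cover counting error only.

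The sequences around the starts of 4 of the genes are given as they stand in RefSeq (GRCm38.p6), each as 300 bases, most of them before the start, 5′ to 3′ on the strand of the gene. Of the 10 genes, 7 were matched. Cd3g and Cd3d lie next to each other on chromosome 9 and are read in opposite directions, with starts 1355 bases apart (GENCODE M21). They are shown because they varied together, Cd8a because it was higher in every female than in every male, and Gzmb as a gene of the killing granules. Capitals mark the E-box letters CACCTG and the RUNX core TGTGGT, searched on both strands, and no match overlapped another in these windows. The sequences are Cd3g at chr9:44980382-44980681 (minus strand), Cd3d at chr9:44981536-44981835 (plus strand), Cd8a at chr6:71373177-71373476 (plus strand) and Gzmb at chr14:56262285-56262584 (minus strand).
Cd3g: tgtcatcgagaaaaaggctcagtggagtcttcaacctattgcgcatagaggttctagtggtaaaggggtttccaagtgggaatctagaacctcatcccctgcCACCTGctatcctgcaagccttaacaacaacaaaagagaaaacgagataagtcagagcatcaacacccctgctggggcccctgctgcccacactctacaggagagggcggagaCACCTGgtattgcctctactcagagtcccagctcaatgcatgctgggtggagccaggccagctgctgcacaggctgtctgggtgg
Cd3d: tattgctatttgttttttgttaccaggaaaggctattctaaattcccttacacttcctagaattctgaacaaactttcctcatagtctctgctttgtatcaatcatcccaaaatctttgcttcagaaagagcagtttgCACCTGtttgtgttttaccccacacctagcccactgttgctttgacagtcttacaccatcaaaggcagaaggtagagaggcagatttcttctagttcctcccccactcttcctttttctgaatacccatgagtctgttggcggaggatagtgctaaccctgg
Cd8a: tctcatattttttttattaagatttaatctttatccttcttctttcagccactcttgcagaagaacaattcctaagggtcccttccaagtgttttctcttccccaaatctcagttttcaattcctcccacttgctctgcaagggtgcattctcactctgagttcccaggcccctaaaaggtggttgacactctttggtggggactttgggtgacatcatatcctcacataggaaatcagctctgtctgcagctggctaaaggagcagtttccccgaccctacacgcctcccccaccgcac
Gzmb: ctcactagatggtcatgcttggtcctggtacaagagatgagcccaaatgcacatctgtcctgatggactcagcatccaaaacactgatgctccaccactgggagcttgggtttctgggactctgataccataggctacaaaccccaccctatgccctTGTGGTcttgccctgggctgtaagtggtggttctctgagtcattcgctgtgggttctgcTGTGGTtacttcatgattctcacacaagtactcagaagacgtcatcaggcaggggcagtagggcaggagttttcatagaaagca
The Cd3g window held the E-box letters in 2 places and the Cd3d window in 1, letters that 20.2% of 32851 windows of this length held. The Gzmb window held the RUNX core in 2 places, against 16.8% of all windows with at least 1. The Cd8a window held neither, and none of the 8 windows of these genes held the cyclic AMP response letters TGACGTCA, found in 1.79% of all windows.

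By the median log2 fold change the 10 genes differed more between the sexes than between diets or genotypes, a ranking that was not itself tested. Not each gene followed it: Cd8b1 had 0.41 between the sexes and 1.26 between diets in WT. Gzmb had 0.65 between the sexes and −0.73 between diets in KO. All 10 genes were higher in females than in males, with a median log2 fold change of 1.10 in a model that holds the group constant, while 48.7% of all tested genes were higher in females and their median was −0.01. At an unadjusted p under 0.05, 8 of the 10 genes were higher in females, where 9.98% of all genes were, and 6 of 10 had at least a 2-fold higher level, where 2.04% of all genes did. Of all genes, 19.3% had an unadjusted p under 0.05 in either direction. None of the 10 passed the call of an adjusted p under 0.01 with a fold change of at least 2 (limma; 0.042% of genes passed) or an adjusted p under 0.05 (0.457% of genes). Most of the 10 genes varied together over the libraries, Cd8b1 least, so they are not independent of each other. Whether their RNA came from the same cells was not tested.

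Cd7 had the lowest adjusted p. In males its scaled RPKM was 3.63 and 2.56 in WT-ND, 4.26 and 11.3 in KO-ND, 3.70 and 4.86 in WT-WD, and 3.02 and 3.09 in KO-WD. In females it was 7.52 and 14.1 in WT-ND, 7.19 and 11.1 in WT-WD, and 10.2 in the KO-WD library. Every female library was above 7 of the 8 male libraries, and KO-ND male 2 was the male that overlapped them. The log2 fold change of females against males was 1.37 ± 0.27 (SE; 2.59-fold, limma adjusted p = 0.051), and a two-sided exact permutation test of sex within the 3 groups that hold both sexes gave p = 0.00926, the smallest of its 108 arrangements.

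Cd8a, the chain that all CD8 molecules share, was the gene whose sexes did not overlap in any library. Its scaled RPKM in males was 0.378 and 0.488 in WT-ND, 1.5 and 1.93 in KO-ND, 1.56 and 1.13 in WT-WD, and 0.660 and 1.47 in KO-WD. In females it was 2.80 and 2.77 in WT-ND, 2.06 and 2.54 in WT-WD, and 2.95 in KO-WD. The lowest female library was thus above the highest male library, a separation found in 0.473% of all genes in this direction, and the log2 fold change was 1.21 ± 0.24 (2.31-fold, limma adjusted p = 0.0539, exact permutation p = 0.00926). On the log2 scale with the pseudocount of 0.5, the females of WT-ND were 1.82 above the males, those of WT-WD 0.60 and that of KO-WD 1.19, and the difference between groups was not tested.

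The 3 CD3 genes, whose products carry the signal of the receptor, were also higher in every female than in every male of the same group. Cd3d had a scaled RPKM in males of 0.524 and 0.3 in WT-ND, 0.781 and 2.46 in KO-ND, 2.41 and 1.10 in WT-WD, and 1.79 and 1.52 in KO-WD. Its values in females were 2.19 and 2.57 in WT-ND, 4.70 and 6.19 in WT-WD, and 2.59 in KO-WD. The lowest of these rested on 4 reads, in WT-ND male 2, and the highest on 95, in WT-WD female 2. The log2 fold change of Cd3d in females was 1.30 ± 0.28 (limma adjusted p = 0.0627). Cd3g ranged from 1.33 to 6.35 in males and from 4.74 to 7.02 in females, a log2 fold change of 1.15 ± 0.30 (limma adjusted p = 0.0805). Cd3e ranged from 0.618 to 3.91 in males and from 1.98 to 3.75 in females, a log2 fold change of 1.04 ± 0.28 (limma adjusted p = 0.0879). For Cd3g and Cd3e, as for Cd7, KO-ND male 2 was the male above the lowest female, and each of the 3 genes reached the smallest exact permutation p of 0.00926.

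The remaining genes differed less between the sexes or were more scattered. Itgae ranged from 0.979 to 3.04 in males and from 1.93 to 2.5 in females (log2 fold change 0.55 ± 0.20, limma adjusted p = 0.17). Cd160 ranged from 0.431 to 2.54 in males and from 0.828 to 2.51 in females (0.76 ± 0.30, limma adjusted p = 0.205), and Gzmb from 0.233 to 1.77 in males and from 0.425 to 2.38 in females (0.65 ± 0.28, limma adjusted p = 0.239). These 3 passed an unadjusted p of 0.05, and their sexes overlapped widely once groups were pooled. Within each of the 3 groups that hold both sexes, however, every Cd160 female was above every male. The exact permutation p of Cd160 was 0.00926, the smallest possible, against 0.0185 for Itgae and 0.0648 for Gzmb. Gzma had the largest spread of all: in males 2.14 and 6.66 in WT-ND, 1.57 and 5.91 in KO-ND, 1.17 and 1.44 in WT-WD, and 0.635 and 1.40 in KO-WD, and in females 6.98 and 3.17 in WT-ND, 1.04 and 13.7 in WT-WD, and 10.1 in KO-WD. Males and females of WT-ND and WT-WD overlapped in this gene, and its log2 fold change of 1.33 ± 0.61 had an unadjusted p of 0.0514 (limma; exact permutation p = 0.102). Cd8b1 differed least between the sexes, with a log2 fold change of 0.41 ± 0.25 (limma adjusted p = 0.404), and it was the gene that was lower in the KO-WD female (0.754) than in the mean of the KO-WD males (1.01).

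**Figure D1:**
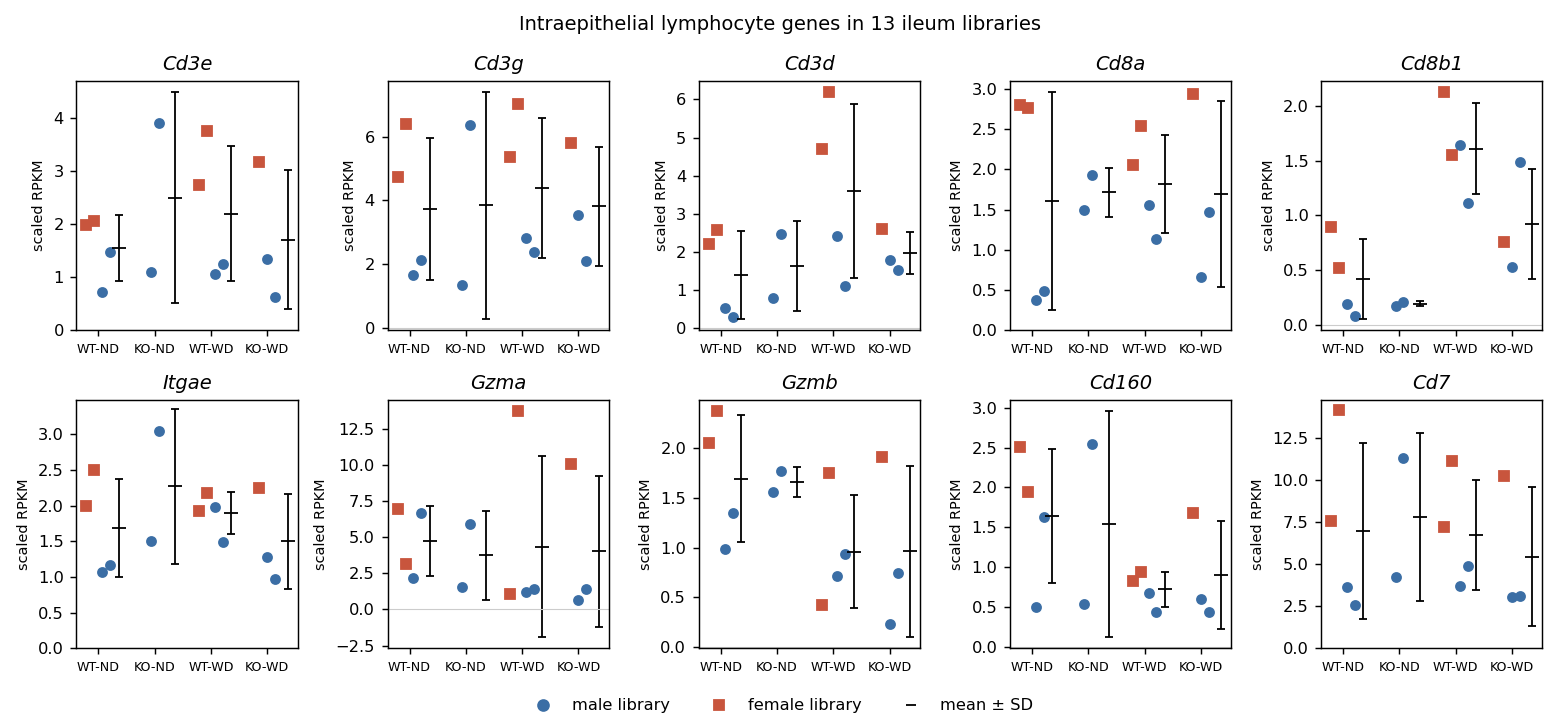
Scaled RPKM (y axis, linear) of each of the 10 genes in the 4 groups (x axis), 1 point per library, with blue circles for males, red squares for females and black bars for the mean ± SD of each group (n = 4, 2, 4 and 3). Female libraries lie above males of the same group in most genes, as in Cd8a, where females range from 2.06 to 2.95 and males from 0.378 to 1.93, while Cd8b1 is higher on the WD than on the ND within each genotype.

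Within groups, the female mean was above the male mean in 10 of 10 genes in WT-ND (median log2 difference 0.90), in 10 of 10 in WT-WD (0.80) and in 9 of 10 in KO-WD (1.15). Every female exceeded every male in 9 of the 10 genes in WT-ND (19% of all genes), in 6 in WT-WD (18.6%) and in 9 in KO-WD (39.2%, with 1 female library against 2 males). The KO-WD value rests on 1 averaged female library; without it, 5 rather than 8 genes had an unadjusted p under 0.05 in the whole comparison and the median log2 fold change was 0.88. With the KO-ND libraries left out, an alternative chosen after seeing the data, the count was 7. Cd7 and at most 1 further gene came under an adjusted p of 0.05 (limma) in some alternatives: 2 genes with upper quartile scaling (lowest 0.0437), without WT-WD female 1 (0.0408), without either KO-ND library (0.0448 and 0.0447) or without both (0.0443), and 1 gene with the KO-WD female 2 column alone (0.0489) or with the minimum mean RPKM of 5 (0.0353). On the RPKM as deposited, with no scaling, the median was 1.06 and the count 7.

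The lists of T cell genes and of epithelial ligands described further below also moved with sex. Higher in females at an unadjusted p under 0.05 were 5 of 6 tested T cell receptor chains and 6 of 11 receptor signaling genes. So were 4 of 8 cytotoxic genes, 4 of 7 lineage genes, 3 of 9 epithelial ligands and 1 of 11 homing genes. Of all genes 9.98% were higher at that p, and no gene of these lists was lower at it. Markers of other cells moved with sex as well. All 5 adipocyte markers were higher in females at an unadjusted p under 0.05, and their summed scaled RPKM was 81.2 to 233 in females and 28.2 to 225 in males. Of the tested markers, 3 of 5 for naive and follicle T cells and 1 of 5 for B cells were higher in females at that p, as 9.98% of all genes were. At the same p, 4 of 5 for fibroblasts, 3 of 5 for Paneth cells and 2 of 5 for plasma cells were lower. Of all genes, 19.3% passed it in either direction. The summed level of the 7 B cell markers ranged from 12.6 to 69.7 in females and from 5.55 to 50.4 in males, and none of the markers of these lists was under 0.1 RPKM in every library. Epithelium markers were higher in females for 3 genes and lower for 3, with none at an unadjusted p under 0.05. The part of these cells in the levels of the 10 genes was not tested.

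The summed level of the 10 genes put the libraries in an order in which sex came before group. The sum was 28.4 to 50.8 in the 5 female libraries and 11.8 to 17.8 in 7 of the 8 male libraries. The exception was KO-ND male 2 with 39.4, the third highest of the 13, while KO-ND male 1 had 14.3. The libraries of KO-ND thus lie far apart, and each comparison that uses this group depends on which of them is kept.

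**Figure D2:**
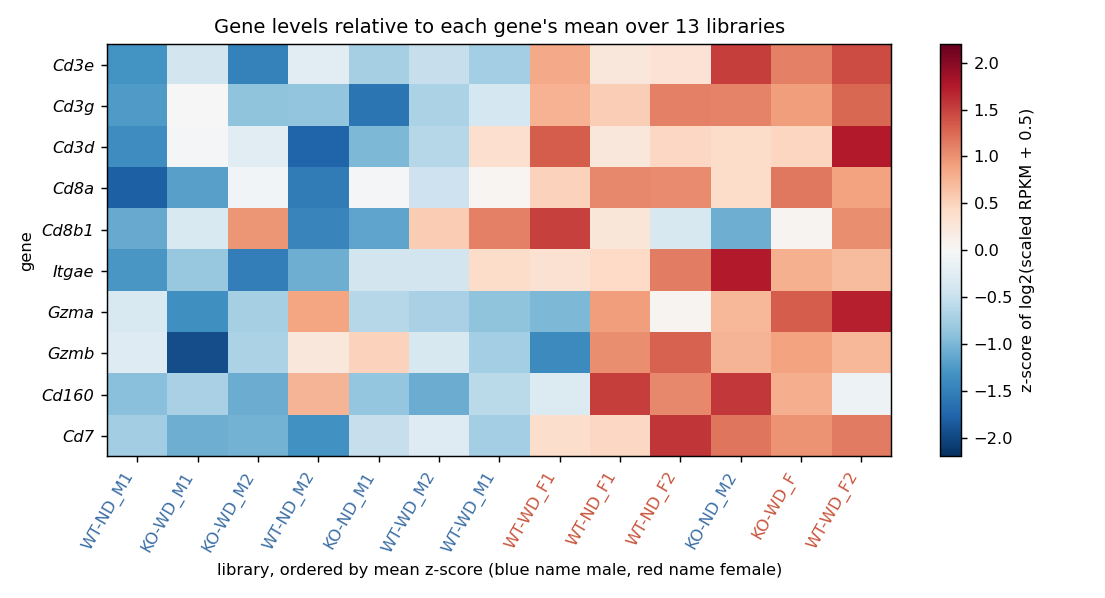
Levels of the 10 genes (rows) in the 13 libraries (columns, ordered from left to right by the mean z-score of the 10 genes; blue names are male, red names female), colored by the z-score of log2(scaled RPKM + 0.5) of each gene. The 7 libraries on the left are males and the 6 on the right are the 5 females and KO-ND male 2; the Cd8b1 row departs from the others.

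Most of the genes varied together. Over the 45 pairs of genes the median Pearson r of log2 values across the 13 libraries was 0.64, and the highest were Itgae with Cd7 (0.89), Cd3e with Cd3g (0.88) and Cd3g with Cd7 (0.85). These libraries share sex and group differences, so the values are a description. Cd8b1 had the lowest values: its median r with the other 9 genes was 0.14, and with Gzmb it was −0.33. With the group means taken out, its median r was 0.33, with Gzmb it was 0.24 and with Cd8a 0.71, while the median over the 45 pairs was 0.71. Gzma and Gzmb had an r of 0.79 with each other and a median r of 0.51 and 0.53 with the other genes. The 8 genes outside the list whose log2 level followed the mean z-score of the 10 genes most closely over the 13 libraries were H2-Eb1 (r = 0.95), Cd74 (0.94), H2-Ab1 (0.93), Ifit1 (0.91), Wdpcp (0.90), Oasl2 (0.90), Cd6 (0.89) and Gcnt1 (0.88). H2-Eb1, H2-Ab1 and Cd74 encode chains of MHC class II and its invariant chain, Ifit1 and Oasl2 are interferon-induced genes, and Cd6 is a surface receptor of T cells. Cd74 ranged from 546 to 1615 scaled RPKM and Ifit1 from 2.66 to 12.4, and Ifit1 was 1.25 higher in females on the log2 scale (limma adjusted p = 0.0231).

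Whether the Western diet changed the genes was asked first in WT mice, with 4 libraries each. None of the 10 was called (0.00525% of genes were called by limma, 0.116% had an adjusted p under 0.05 and 15.5% an unadjusted p under 0.05). At an unadjusted p under 0.05, 2 genes, Cd8b1 and Cd3d, were higher on the WD, where 6.9% of all genes were, and the same 2 were at least 2-fold higher, where 1.88% of all genes were. The median log2 fold change of the 10 genes was 0.22, with 7 above 0 and 3 below, against a median of 0.02 over all genes and 51.8% of them above 0. Leaving out single libraries moved the median between 0.01 (without WT-ND male 1) and 0.49 (without WT-ND female 2). Without scaling, the median of all genes moved to −0.38 and that of the 10 genes to −0.17, so the 10 genes stayed above the median of all genes by about as much. The signs of Cd3e, Cd3g, Cd7 and Itgae turned with this shift of all genes.

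Cd8b1, the CD8 beta chain, showed the clearest difference between diets. Its scaled RPKM in WT-ND was 0.190 and 0.0818 in males and 0.897 and 0.517 in females, from 3, 1, 18 and 11 reads. In WT-WD it was 1.65 and 1.12 in males and 2.13 and 1.56 in females, from 26, 21, 31 and 22 reads. Every WD library was above every ND library, as for 4.2% of all genes, in males and in females alike. The means were 0.421 ± 0.367 (SD, n = 4) on the ND and 1.61 ± 0.415 (n = 4) on the WD, and the log2 fold change on the scale with a pseudocount of 0.5 was 1.26 ± 0.32 (SE; limma adjusted p = 0.117, unadjusted p = 0.00169). The two-sided exact permutation test gave p = 0.0286, the smallest that 4 against 4 allows. With only the males the log2 fold change was 1.56, and without scaling it was 0.99. The adjusted p was 0.0289 with all 16 columns taken as samples and 0.0686 with sex as a covariate, and it lay between 0.0289 and 0.281 over the alternatives.

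The CD3 genes and the CD8 alpha chain had smaller differences between diets or more spread. Cd3d had a log2 fold change of 1.14 ± 0.53 on the WD in WT (limma adjusted p = 0.321, unadjusted p = 0.0497, exact permutation p = 0.143). Its WD libraries were above its ND libraries within each sex, and the share of all genes that separate in this way was not counted. With sex as a covariate the same fold change had an SE of 0.32 (limma adjusted p = 0.103, unadjusted p = 0.00422), close to Cd8b1 in that fit (unadjusted p = 0.00117). Cd3d and Cd8b1 were the 2 genes at an unadjusted p under 0.05 there, where 18.7% of all genes were. Cd3e had 0.33 ± 0.46, Cd3g 0.26 ± 0.50 and Cd8a 0.37 ± 0.48, each within its standard error of 0. Among males alone Cd8a had 0.98 ± 0.38 (limma adjusted p = 0.255, unadjusted p = 0.0335), and Cd8b1, Cd3d and Cd8a were the 3 genes at an unadjusted p under 0.05, where 17.4% of all genes were. The genes of the killing granules and Cd160 lay on the other side of 0, with −0.72 ± 0.80 for Gzma, −0.62 ± 0.38 for Gzmb and −0.72 ± 0.42 for Cd160, none at an unadjusted p under 0.05. Cd160 was 0.504, 1.62, 2.51 and 1.94 in WT-ND and 0.670, 0.435, 0.828 and 0.945 in WT-WD, in the order male 1, male 2, female 1 and female 2, and the low WT-ND male 1 made the groups overlap.

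In KO mice the diet was compared with 3 WD libraries and 2 ND libraries. None of the 10 was called (0% of genes were called by limma, 0.00525% at an adjusted p under 0.05 and 5.49% at an unadjusted p under 0.05). Cd8b1 was again higher in every WD library (0.526, 1.49 and 0.754 in male 1, male 2 and the female) than in both ND libraries (0.174 and 0.206), as for 10.8% of all genes, with a log2 fold change of 0.99 ± 0.41 (limma adjusted p = 0.898, unadjusted p = 0.0318); the exact permutation p was 0.2. Cd8b1 was thus the 1 gene with an unadjusted p under 0.05, where 2.75% of all genes were higher at that p, and 0 genes had one without KO-ND male 1, without KO-ND male 2 or without KO-WD male 2. The other 9 genes had log2 fold changes from −0.73 (Gzmb) to 0.32 (Cd3d). The median over the 10 genes was −0.40 with 3 genes above 0 (50.4% of all genes), and it was −0.84 without KO-ND male 1 and 0.32 without KO-ND male 2. KO-ND holds males only and KO-WD a female, and with sex as a covariate the median was −0.67. In that fit Cd8b1 was no longer at an unadjusted p under 0.05 (0.85 ± 0.39, limma adjusted p = 0.573), while Cd7 (−1.004 ± 0.41, limma adjusted p = 0.527) and Gzmb (−0.95 ± 0.43, limma adjusted p = 0.571) were lower at that unadjusted p, as 8.74% of all genes passed it in either direction. Among males alone Cd7, Gzmb and Cd8b1 had an unadjusted p under 0.05, as 13.8% of all genes did, and no adjusted p of the 10 genes in either fit was under 0.05 (limma). Without scaling, the median of all genes moved to −0.35, and the signs of Cd3d and Cd3g turned with it.

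The 2 CD8 chains were also compared as a ratio within each library, on the RPKM as deposited. The log2 ratio of Cd8b1 to Cd8a (RPKM with a pseudocount of 0.5) was −0.38, −0.83, −1.33 and −1.79 in WT-ND and 0.06, −0.02, 0.04 and −0.52 in WT-WD, in the order male 1, male 2, female 1 and female 2. WT-WD was near 0 and WT-ND below, with an overlap of WT-ND male 1 and WT-WD female 2. The difference was 0.97 (two-sided exact permutation p = 0.0571, Benjamini-Hochberg adjusted p = 0.343 over the 6 ratio comparisons), and 1.44 with a pseudocount of 0.1 (exact permutation p = 0.0286). At these low levels the pseudocount bears on the ratio. Without one, an alternative chosen after seeing the data, the plain ratio was 0.168 to 0.503 in WT-ND and 0.613 to 1.06 in WT-WD with no overlap, and the mean log2 difference was 1.76 (exact permutation p = 0.0286), although the ratio of WT-ND male 2 then rests on 1 read of Cd8b1. In KO mice the ratio was −1.54 and −1.94 on the ND and −0.16, 0.01 and −1.36 on the WD, and the 3 WD libraries were above the 2 ND libraries (exact permutation p = 0.2). Between genotypes on the WD the ratio differed by −0.40 (exact permutation p = 0.4), and without the KO-WD female by 0.034. The ratio was lower in females by 0.83 within groups (exact permutation p = 0.0185, outside the 6).

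**Figure D3:**
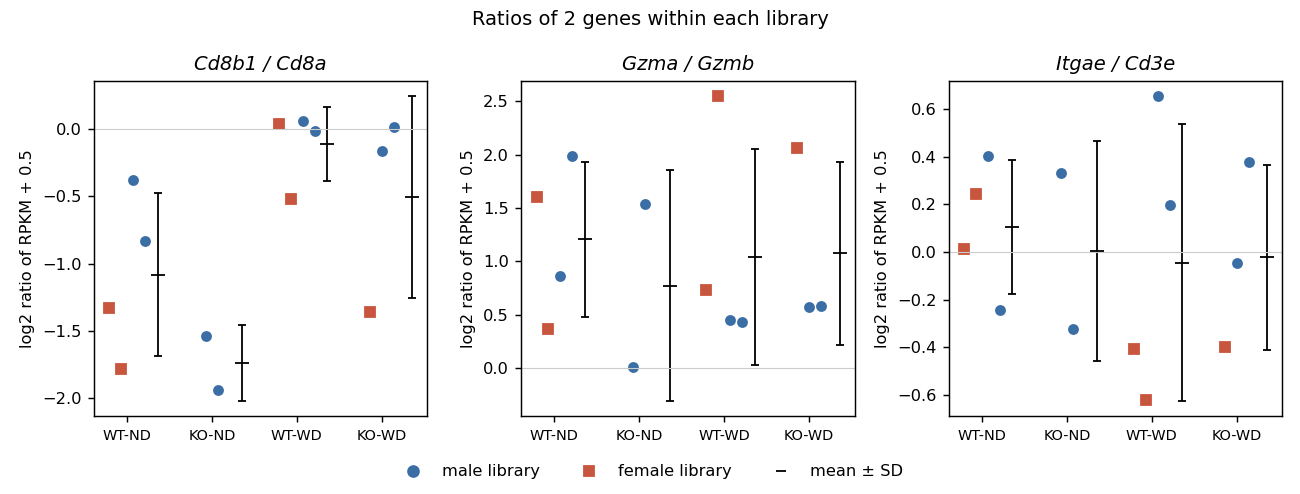
Log2 ratios of Cd8b1 to Cd8a, Gzma to Gzmb and Itgae to Cd3e (y axes, RPKM + 0.5) in the 4 groups, 1 point per library with circles for males and squares for females, and black bars for the mean ± SD. The mean Cd8b1 to Cd8a ratio is lowest in KO-ND (−1.94 and −1.54), whose values overlap those of WT-ND (−1.79 to −0.38). This ratio is near 0 in most WD libraries, with the KO-WD female at −1.36. The other ratios overlap between all groups.

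The 2 further ratios did not separate diets or genotypes. The log2 ratio of Gzma to Gzmb was 1.20 ± 0.73 (SD, n = 4) in WT-ND, 0.77 ± 1.08 (n = 2) in KO-ND, 1.04 ± 1.01 (n = 4) in WT-WD and 1.07 ± 0.86 (n = 3) in KO-WD. That of Itgae to Cd3e, the integrin relative to a pan-T cell gene, was 0.10 ± 0.28, 0.00 ± 0.46, −0.04 ± 0.58 and −0.02 ± 0.39 in the same order. The exact permutation p of these ratios was 0.686 to 0.971 for diet in WT and genotype on the WD, and the smallest that these designs allow is 0.0286.

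The constant chains of the receptor, from a list of 7 genes of which 6 were tested, were read beside the CD8 genes. Trbc2 and Trbc1, the beta chains of the alpha-beta receptor, were higher on the WD in WT mice at an adjusted p under 0.05, and they are near-identical copies whose reads the counting could divide either way. Trbc1 was 4.41 to 7.65 scaled RPKM in WT-ND and 16.2 to 46.0 in WT-WD with no overlap, a log2 fold change of 2.17 ± 0.31 (limma adjusted p = 0.0311). Trbc2 was 4.22 to 7.69 and 20.1 to 68.1, a log2 fold change of 2.70 ± 0.35 (limma adjusted p = 0.029). The alpha chain Trac had 1.85 ± 0.51 (limma adjusted p = 0.138). The gamma chains, which belong to the gamma-delta receptor of many natural intraepithelial lymphocytes, had smaller values, 0.83 ± 0.32 for Trgc1, 0.07 ± 0.50 for Trgc2 and −0.08 ± 0.32 for Trgc4 (limma adjusted p = 0.248, 0.963 and 0.924). The difference between chains was not tested. In KO mice Trbc1 and Trbc2 were also higher in every WD library than in both ND libraries, as for 10.8% of all genes. Their log2 fold changes were 1.35 ± 0.41 and 1.88 ± 0.46, without passing an adjusted p of 0.05 (limma, 0.844 and 0.69), and the exact permutation p was 0.2 for each. The interaction of diet and genotype passed for none of the 6 chains.

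The other lists, of T cell genes and of epithelial ligands, held no gene at an adjusted p under 0.05 for diet in WT. The counts given next at an unadjusted p under 0.05 stand against 6.9% of all genes higher and 15.5% in either direction, so that 1 or 2 genes of a list are near the share of all genes. Of the signaling genes, 5 of 11 tested were higher at an unadjusted p under 0.05 and none lower, led by Lck (1.23 ± 0.47) and Cd2 (0.91 ± 0.36), the kinase and the adhesion receptor of T cells, with Cd247 (−0.42 ± 0.38) and Zap70 (−0.29 ± 0.30) at the other end; the median was 0.56. Of the cytotoxic effectors and natural killer receptors, 2 of 8 were higher, Fcer1g (0.81 ± 0.25) and Tyrobp (0.79 ± 0.29), adaptors that myeloid cells also express, and the lowest were Ctsw (−0.52 ± 0.50) and Ccl5 (−0.35 ± 0.62). Of the homing genes 2 of 11 were higher, with Itgb7 (0.84 ± 0.36), the partner chain of Itgae, at the top and past that p, then Madcam1 (0.63 ± 0.49), a vessel ligand that was not past it, and Cdh1 (−0.30 ± 0.30), which encodes E-cadherin, and Gpr55 (−0.21 ± 0.25) at the bottom. Of the lineage factors and cytokine receptors 1 of 7 was higher, with Il7r (0.85 ± 0.31) and Il2rg (0.72 ± 0.36) at the top and Il15 (−0.20 ± 0.42) and Il2rb (−0.04 ± 0.34) at the bottom. Of the epithelial ligands 1 of 9 was higher and 1 lower, Tnfrsf14 (0.83 ± 0.23), the ligand of Cd160, and H2-Q10 (−0.76 ± 0.30), and Cd1d1 (0.23 ± 0.35) and H2-T3 (−0.53 ± 0.46), which binds pairs of CD8 alpha chains, came next. Among markers of other cells in the same comparison, 5 of 5 for naive and follicle T cells, 5 of 5 for B cells and 6 of 6 for macrophages were above 0, with 2, 0 and 2 at an unadjusted p under 0.05, whereas 5 of 5 for adipocytes and 6 of 6 for epithelium were below 0, with 3 and 1 at that p. Their summed levels overlapped between diets for B cells, and the part of these cells in the values of Cd8b1 and the receptor chains was not tested.

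Genotype was compared on the WD with 3 KO and 4 WT libraries. None of the 10 genes was called (0.0105% of genes were called, 0.0263% had an adjusted p under 0.05 and 2.65% an unadjusted p under 0.05), and none had an unadjusted p under 0.05. Of the 10 genes 9 lay below 0 and 1 above, where 47.7% of all genes were above 0, and the median log2 fold change was −0.24. Cd8b1 had the lowest p of the 10: its KO-WD values of 0.526, 1.49 and 0.754 had a mean of 0.923 ± 0.503 (SD, n = 3) against 1.61 ± 0.415 (n = 4) in WT-WD, a log2 fold change of −0.60 ± 0.34 (limma unadjusted p = 0.101, exact permutation p = 0.114). Cd3d had −0.56 ± 0.57, Cd7 −0.38 ± 0.58, Cd3e −0.34 ± 0.50, Itgae −0.30 ± 0.31, Cd8a −0.18 ± 0.51, Cd3g −0.16 ± 0.54, Gzmb −0.09 ± 0.41, Gzma −0.04 ± 0.87 and Cd160 0.12 ± 0.45. WT-WD holds 2 females of 4 and KO-WD 1 of 3, and with sex as a covariate the median was −0.07, with 5 genes below 0 and 5 above. Leaving out the KO-WD female gave −0.57 and leaving out WT-WD female 2 gave −0.06. Among markers of other cells, 5 of 5 for Paneth cells were above 0 and 6 of 6 for macrophages below 0, with 2 of each at an unadjusted p under 0.05, and their part in these values was not tested.

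The lists of T cell genes and of epithelial ligands had medians on the same side in this comparison, with no gene at an unadjusted p under 0.05. The homing list also holds genes of epithelium and vessels, such as Cdh1 and Madcam1. The median log2 fold change was −0.49 for 6 receptor chains, −0.28 for 11 signaling genes, −0.28 for 8 cytotoxic genes, −0.22 for 11 homing genes, −0.09 for 7 lineage genes and −0.44 for 9 epithelial ligands, against −0.01 for all genes. These medians come from the fit without sex, and WT-WD holds 2 females of 4 and KO-WD 1 of 3. For females against males the medians were 0.82, 0.59, 0.68, 0.28, 0.55 and 0.55 in the same order. The part of sex in the genotype medians of these lists was not tested. The lowest and highest were Trgc1 (−0.68 ± 0.35) and Trbc1 (−0.63 ± 0.34) against Trgc2 (−0.08 ± 0.54) and Trgc4 (−0.11 ± 0.35) among the receptor chains, and Cd6 (−0.58 ± 0.49) and Cd5 (−0.55 ± 0.42) against Cd247 (0.25 ± 0.41) and Skap1 (0.11 ± 0.30) among the signaling genes. Among the epithelial ligands they were Btnl1 (−0.90 ± 0.53) and Btnl2 (−0.79 ± 0.59), butyrophilin-like genes, against Tnfrsf14 (0.39 ± 0.24) and H2-Q10 (0.18 ± 0.32). Klrd1 (−0.64 ± 0.41) and Ccl5 (−0.60 ± 0.67) were the lowest of the cytotoxic genes, Ccl25 (−0.49 ± 0.52) and Gpr18 (−0.46 ± 0.52) of the homing genes, and Runx3 (−0.53 ± 0.44) and Il15 (−0.46 ± 0.46) of the lineage genes. The highest of these lists included Itgb7 (0.33 ± 0.39), Il15ra (0.21 ± 0.28) and Ctsw (0.18 ± 0.54).

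On the ND, 2 KO males were compared with 4 WT mice of both sexes. None of the 10 genes was called (0% of genes by limma, 0.00525% at an adjusted p under 0.05) and none had an unadjusted p under 0.05 (4.73% of genes did). The log2 fold changes ranged from −0.39 ± 0.98 (Gzma) to 0.43 ± 0.57 (Cd3e), with a median of 0.15 and 6 genes above 0 (51.3% of all genes). The females of this comparison are all WT, and females had the higher levels in the groups with both sexes. With sex as a covariate the median was 0.54 with 9 of 10 genes above 0 and 4 genes (Cd8a, Cd7, Cd3e and Cd3d) at an unadjusted p under 0.05, where 3.89% of all genes were. Among males alone the median was 0.67 with 2 such genes, Cd8a and Cd7, where 8.92% of all genes were. Cd8a was 1.5 and 1.93 in the KO-ND males and 0.378 and 0.488 in the WT-ND males, a log2 fold change of 1.27 ± 0.38 among males (limma adjusted p = 0.545). The exact permutation test of the whole comparison cannot fall below 0.0667. For the 10 genes the median was −0.35 without KO-ND male 2 and 0.68 without KO-ND male 1.

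The interaction, which asks whether the diet difference itself differed between genotypes, was not called for any of the 10 genes (0% of genes by limma, also at an adjusted p under 0.05), and none had an unadjusted p under 0.05 (1.43% of genes did). Its median was −0.40, with 8 genes below 0 and 2 above (49.5% of all genes), and the lowest were Cd3d (−0.83 ± 0.86), Cd3e (−0.76 ± 0.76), Cd7 (−0.66 ± 0.88) and Itgae (−0.64 ± 0.47). KO-ND holds no female, and with sex as a covariate the median was −0.63 with 9 genes below 0. In that fit Cd3d alone had an unadjusted p under 0.05 (−1.26 ± 0.53, limma unadjusted p = 0.0364, adjusted p = 0.999978), and the share of all genes was not counted. With the males alone all 10 were below 0, the median was −0.94 and 2 had an unadjusted p under 0.05, where 1.83% of all genes did. Without KO-ND male 2, in the fit without sex, the median was −0.03. For Cd8b1 the interaction was −0.27 ± 0.52, a difference smaller than its standard error.

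**Figure D4:**
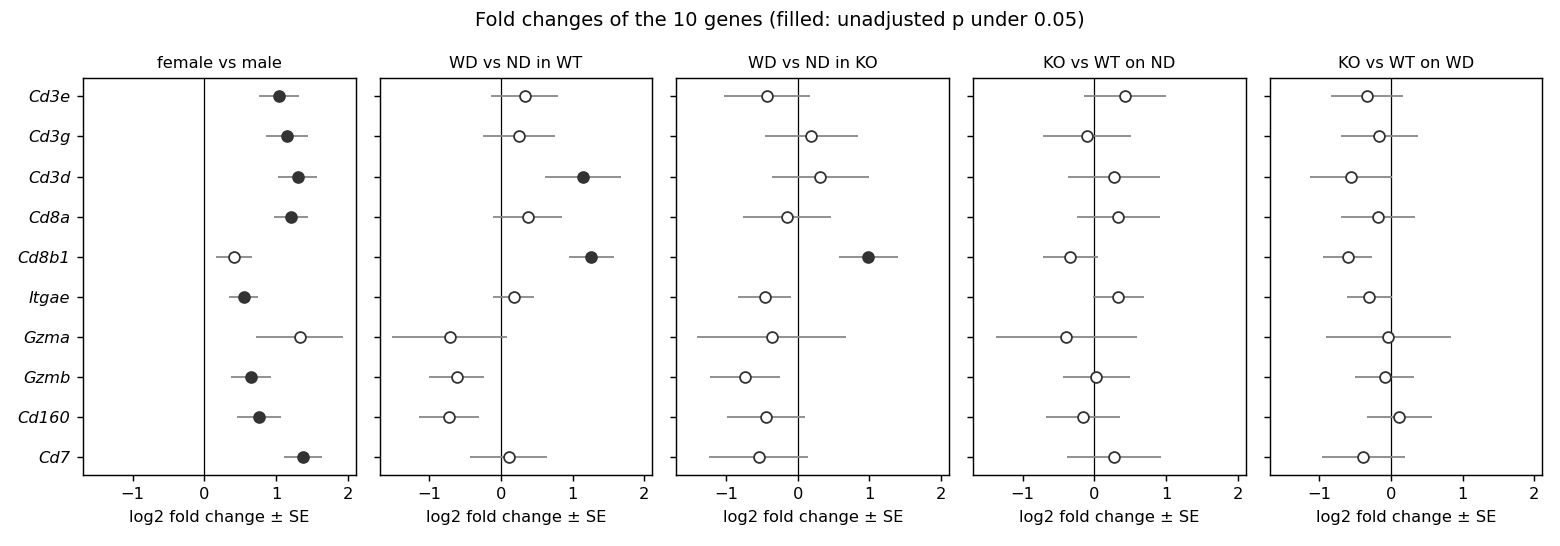
Log2 fold changes ± SE (x axis) of the 10 genes (y axis) in 5 comparisons, on log2(scaled RPKM + 0.5), with filled points for an unadjusted p under 0.05 and open points for the others. Between the sexes all 10 points lie to the right of 0, from 0.41 to 1.37, while in the diet and genotype comparisons most points lie within 1 or 2 standard errors of 0 and the Cd8b1 and Cd3d points are the filled ones.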

How the data were processed

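The authors sequenced terminal ileum RNA (mRNA selected and depleted of ribosomal RNA) on the Ion Proton platform, mapped the reads with STAR in Partek to mm10 and quantified Ensembl transcripts; the deposited values, which the authors made by dividing reads by transcript length and library total, are RPKM per transcript. The authors' own DESeq2 test, which needs counts, was not repeated. Gene values are sums over the transcripts whose name without its last hyphenated part is the gene. Genes entered the tests if 2 or more of the 13 libraries reached an RPKM of 1. Scaling used trimmed log ratios between libraries (trims of 30% on ratios and 5% on levels, both ends). Limma 3.58.1 (R 4.3.3, trend option) then fitted log2(scaled RPKM + 0.5) in a single model of 4 groups; females were compared with males in the same model plus sex. Single genes and ratios had two-sided exact permutation tests (scipy 1.17.1). Calls required a 2-fold change and an adjusted p (Benjamini-Hochberg over all genes tested) below 0.01.

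One read's worth was found from genes with 1 transcript (tolerance 0.02 reads), where 86.5% to 87.9% of the values of a library were whole; the summed values of the 10 genes were within 0.05 reads of whole numbers in 102 of 130 cases, and intervals cover counting error only. No library total in reads beyond the table was used. Places are from GENCODE M21 and promoter sequences from RefSeq, both on the GRCm38 build of the files. Symbols of 4 list genes were matched through RefSeq synonyms. A simulation of the KO against WT comparison on the WD used 19042 genes with the group means taken out. The fit called 0 of 200 genes changed by 1 on the log2 scale, 79 of 200 changed by 1.5 and 186 of 200 changed by 3. A change of 1 lies at the fold change cut-off itself, and its median estimate was 0.993. Unchanged genes were left with differences near 0, so the 0 false calls were set by the simulation and measure no error rate. Differences in group means were largely taken out of the changed genes too, so the counts of called genes do not measure the power of the real comparison. The 200 genes were drawn from all tested genes, not from genes at the levels of the 10. Named genes were all 10, the 2 highest and 2 lowest of each list for diet in WT and for genotype on the WD, and the 8 genes most like the mean z-score. The 10 genes and the lists were chosen with earlier results of these data known. Whether the replicate numbers pair the samples was not settled. Same-numbered libraries of different groups had correlations of −0.20 to 0.57 in their deviations from the group means, above 0.1 in 7 of 16 pairs. For WT-WD and KO-WD males, same numbers gave 0.57 and 0.42 and crossed numbers −0.11 and 0.03. For WT-ND and WT-WD males, same numbers gave −0.009 and 0.28 and crossed numbers 0.28 and −0.02. For the females of these groups, same numbers gave 0.47 and 0.30 and crossed numbers −0.29 and −0.005. The averaged KO-WD female library had −0.14 with WT-WD female 1 and 0.63 with WT-WD female 2. The 2 KO-ND libraries deviate in exactly opposite directions, so their pairs cannot decide it. Alternatives were other scalings, pseudocounts, filters, covariates, sets of libraries and thresholds.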

Additional observations from a re-analysis of the deposited data

Results flagged for a closer look

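Of the 20 sets of 4 libraries tested for a value far from the others (10 genes in WT-ND and in WT-WD), 1 stood out: Gzma had a scaled RPKM of 13.7 in WT-WD female 2, against 1.04 to 1.44 in the other WT-WD libraries, a gap above Dixon's critical value of 0.829 for 4 values. Chance gives about 1 such value in 20 sets. The same library was the highest of the 13 in the summed level of the 10 genes.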

How the results depend on the processing

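The count of called genes was 0 in each of the 6 comparisons and 0 under each alternative fit at the same threshold. At an unadjusted p under 0.05 it was 2 for diet in WT, 1 for diet in KO, 8 for females against males and 0 for the others. The 8 genes higher in females were 7 to 9 under other scalings, pseudocounts and column choices, and 1 where only genes with a mean RPKM of at least 5 were kept, a filter that Cd7 alone passed. Leaving out each library gave 5 to 9, with 5 without the KO-WD female. It gave medians of 0.01 to 0.49 for diet in WT, −0.84 to 0.32 for diet in KO, −0.35 to 0.68 for genotype on the ND, −0.57 to −0.06 for genotype on the WD, −0.84 to −0.03 for the interaction and 0.88 to 1.15 for females against males. For the ratios the ranges were −0.66 to 0.034 (Cd8b1/Cd8a), −0.46 to 0.53 (Gzma/Gzmb) and −0.18 to 0.26 (Itgae/Cd3e) for genotype on the WD, and 0.74 to 1.21, −0.67 to 0.097 and −0.38 to 0.043 for diet in WT. The Cd8b1/Cd8a diet difference in WT passed an exact permutation p of 0.05 with a pseudocount of 0.1 (1.44) and, chosen after seeing the data, with none (1.76). The Gzma/Gzmb genotype difference turned with the KO-WD female 2 column alone (−0.019), and the Itgae/Cd3e difference with males alone (−0.26 for genotype and 0.34 for diet), with the 16 columns (−0.071) and with the replicate block (−0.17). Under the replicate block the medians were 0.22 for diet in WT, −0.68 for diet in KO, 0.56 for genotype on the ND, −0.0046 for genotype on the WD and −0.62 for the interaction, with 0 calls. Fold changes of single genes changed sign in 97 of 1586 cases, 7 of them beyond 1 standard error of 0. For Cd3g these were genotype on the ND with sex as a covariate (0.48), with the replicate block (0.50) and with males alone (0.59). The others came from leaving out 1 KO-ND library, which moved Cd3g between −0.76 and 1.14 for diet in KO, between −1.05 and 0.85 for genotype on the ND and between −1.01 and 0.89 for the interaction, and Cd160 between −0.93 and 0.61 for genotype on the ND. Without scaling, the median of all genes was −0.14 for genotype on the ND and −0.12 for genotype on the WD. The cause of these differences was not tested. At 1 to 31 reads per library, counting error limits Cd8b1 most.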
